A study of Sus scrofa with 4 samples.

Results

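The cells described here are the trophectoderm of the day 9 pig embryo, the outer epithelial layer of the conceptus, as picked out by 2 genes in single-cell RNA data. Of 7001 cells kept in the day 9 embryo library, 529 (7.56%, exact binomial interval 6.95 to 8.20%) had KRT18 at 8000 CPM or more and APOA1 below 5000 CPM. A UMI is a molecule counted once by its tag, and CPM are the UMIs of a gene scaled to 1000000 UMIs in all, here those of the cell. The other 6472 kept cells of the same library are the main comparison. The labels do not state the shape of the embryos, and the counts cannot show it.

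Pig embryos and endometrium (the lining of the uterus) were collected at 9 and at 12 days of pregnancy and measured in 4 droplet libraries, 1 for each tissue and day. The groups used here are the day 9 embryo, the day 12 embryo, and, as background levels only, the endometrium of each day. No breed, parity or number of embryos is stated, no treatment is named, and it is not stated how many embryos were pooled. Embryos were minced and dissociated with papain, dispase and DNase, red cells were lysed, and a 3' kit was used, per the labels' protocols. Because each group is a single library, differences could not be set against a spread between replicates and no test was made. All intervals are at 95% and cover counting error only, not variation between embryos or animals. Those of levels and ratios pool UMIs over cells, so they leave out variation between cells too.

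Trophectoderm seals the blastocyst, pumps fluid into its cavity and later forms the outer layer of the placenta. Between days 9 and 12 the pig conceptus grows quickly and then elongates into a filament inside the uterus. Its trophectoderm secretes oestrogen, the signal by which the pig conceptus makes itself known to the mother, and an interleukin 1 beta made from a gene copy of its own, IL1B2. The hypoblast, the inner layer that lines the cavity and makes apolipoproteins, is the other abundant tissue of the conceptus at this age.

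The KRT18-high cells held 3879933 UMIs, with a median of 6169 UMIs and 1652 genes per cell, against 78673563 UMIs and medians of 12206.5 UMIs and 2839.5 genes in the other kept cells. The day 9 embryo was deposited with 657829 barcodes, nearly all of them outside cells, so low-UMI barcodes could stand for its free RNA. Barcodes of 1 to 100 UMIs served for that and held 1347756 UMIs, 173198 of them in barcodes that another library shared. The part of RNA from other libraries in the free RNA levels was not tested. Of the barcodes of the day 12 embryo, the day 9 endometrium and the day 12 endometrium, 89.3%, 99.9% and 99.9% stood among those of the day 9 embryo. Of these, 257 were kept cells of the day 9 embryo and 20 were KRT18-high cells. Without cells of shared barcodes the counts of genes given below were 486 higher and 1430 lower, against 481 and 1428 with them.

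KRT18 and APOA1 chose the cells, so their values are a description. KRT18 encodes keratin 18, the type I keratin of simple epithelia, and had a median of 22490 CPM per cell in the KRT18-high cells (8203 to 45733), against a median of 709 in the other cells. APOA1, the main protein of high density lipoprotein, had a median of 3197 CPM in the KRT18-high cells (1267 to 4981), against 18370 in the other cells. Few cells lay near the KRT18 threshold: among cells under the APOA1 threshold, 3 had 8000 to 9000 CPM and 3 had 7000 to 8000. More lay near the APOA1 threshold, with 110 KRT18-high cells at 4000 to 5000 CPM and 52 at 5000 to 6000. A group of 158 cells had both genes high, 23.0% of all 687 cells over the KRT18 threshold, and 31 cells had both low. These 189 cells are counted among the other cells.

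**Figure D1:**
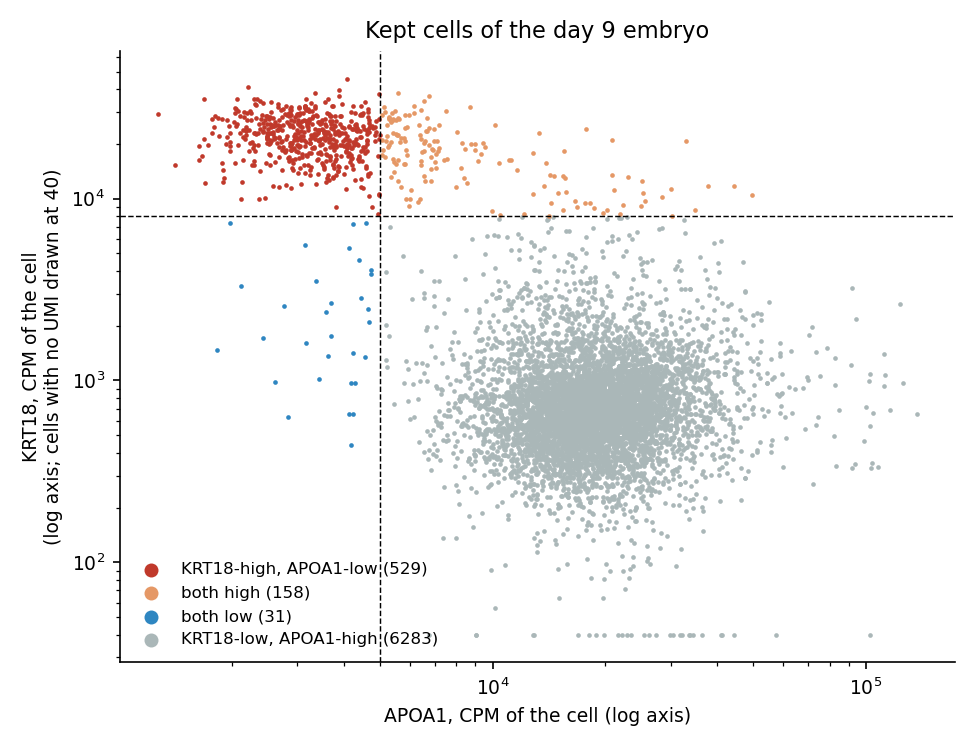
Each point is a kept cell of the day 9 embryo, with APOA1 on the x axis and KRT18 on the y axis, both in CPM of the cell on log axes, and dashed lines at the 2 thresholds. The 529 KRT18-high cells form a cloud at the upper left that runs on, without a gap, into the 158 cells with both genes high, while only 31 cells stand at the lower left.

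Marker genes were set beside the label, from lists chosen with earlier results of these data known, so they do not test it. All 12 measured trophectoderm markers were at least 2-fold higher in the KRT18-high cells than in the other cells. KRT18 itself and 4 other genes of the list had been named with the rule. Of all 7873 genes at 5 CPM or more in either group, 8.81% were at least 2-fold higher and 35.3% lower. Levels of a group of cells are CPM of its summed UMIs. GATA2, a zinc finger factor of the trophoblast, was at 164 CPM in the KRT18-high cells and 9.94 CPM in the others. TFAP2A, an AP-2 factor, was at 32.2 CPM against 0.826 CPM, and TFAP2C of the same family at 8.76 CPM against 0.242 CPM. CDX2, the homeobox factor that sets the trophectoderm apart in the mouse blastocyst, differed less, at 80.2 CPM in the KRT18-high cells and 28.4 CPM in the others. It had a UMI in 19.8% of the KRT18-high cells and 7.45% of the others at equal depth, that is after every cell was thinned at random to the minimum number of UMIs of a kept cell, and in 40.5% and 28.3% without thinning.

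Hypoblast markers were lower but mostly not absent. All 15 measured hypoblast markers were at least 2-fold lower in the KRT18-high cells, against 35.3% of all genes. APOA1 among them was a rule gene. The 14 others that reached 20 CPM in the comparison cells stood at 6.37% to 22.0% of their level there, with a median of 10.9%, and at 7.43% to 22.5% of their level in free RNA, with a median of 15.2%. SOX17, an endoderm factor, was at 24.2 CPM in the KRT18-high cells, 273 CPM in the other cells and 220 CPM in free RNA. The hypoblast markers summed to 1408 CPM without APOA1, against 8069 CPM in the other cells. TTR and AFP were at 0 counts in the KRT18-high cells but were below 5 CPM in the other cells too. These zeros do not set the groups apart. How much of these hypoblast transcripts came from free RNA was not tested.

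Of 9 matched mesoderm markers, 5 were at 0 in the KRT18-high cells, among them TBXT, MIXL1, COL1A1 and COL3A1, and 1 reached 5 CPM. The 5 endometrial stroma markers summed to 0.515 CPM and the 6 erythroid markers to 1.8 CPM. Of the 4 endothelial markers PECAM1 alone was seen, at 17.5 CPM in the KRT18-high cells against 154 CPM in the others. PTPRC, which marks all white blood cells, was at 0 and was below 5 CPM in the others too. AIF1 of the same immune list was at 7.99 CPM against 1.42 CPM. The immune list summed to 3499 CPM in the KRT18-high cells and 3727 CPM in the other cells, nearly all of it from CD74 and CD79A, which were at 3282 and 157 CPM in free RNA. Of 2 measured epiblast markers 1 was at least 2-fold higher and 1, DNMT3B, lower. The higher one, DPPA5, a gene of pluripotent cells, was at 74.2 CPM in the KRT18-high cells against 5.38 CPM in the others. NANOG was at 0 and was below 5 CPM in the others too, and the 4 matched epiblast markers summed to 117 CPM against 154.5 CPM.

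Of 4768 genes at 20 CPM or more in either group, 481 (10.1%) were at least 2-fold higher and 1428 (29.9%) at least 2-fold lower in the KRT18-high cells than in the other kept cells, on a log2 scale with 1 CPM added. The median log2 ratio was -0.28. Because the cells were chosen from the same counts, these ratios describe the cells and test nothing.

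Among named genes IL1B2 had the highest ratio. It was at 3006 CPM in the KRT18-high cells (2952 to 3061) and 54.7 CPM in the other cells, a ratio of 54.9 (53.0 to 56.9). Free RNA held 168 CPM, and the endometrial libraries had no IL1B2 UMI. Nothing in the labels or file headers says how reads that other copies of the interleukin 1 beta gene could share were counted. HSD17B1, which turns oestrone into the more potent oestradiol, was at 3275 CPM in the KRT18-high cells and 73.7 CPM in the other cells, a ratio of 44.4 (43.1 to 45.9). It had a UMI in 98.7% of thinned KRT18-high cells and in 14.6% of the others, and in 99.8% and 42.5% without thinning. Of the 5 genes named with the rule it was thus found in almost every cell, as KRT8 and KRT18 were.

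HAND1, a helix-loop-helix factor needed for the trophoblast giant cells of the mouse, was at 205 CPM in the KRT18-high cells and 4.39 CPM in the others. GATA3, a GATA factor that acts beside CDX2 in the mouse trophectoderm, was at 102 CPM against 2.44 CPM, a ratio of 41.8 (35.1 to 49.95). KRT7, a type II keratin typical of trophoblast, was at 688 CPM against 22.6 CPM. ASCL2, a helix-loop-helix factor of the early trophoblast, was at 80.2 CPM against 1.51 CPM, and unlike most of these genes it was scarcely seen in free RNA, at 0.742 CPM.

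The other genes with the highest ratios, which ran from 28.4 to 45.7, fell into a few kinds. CYP11A1 and CYP17A1 make steroids. RBP2 and RDH16 handle retinol, and stood at 229 and 516 CPM in the KRT18-high cells against 6.14 and 18.1 CPM in the others. SLC39A2 imports zinc and ABCG2 exports drugs and sterol conjugates, at 120 and 104 CPM against 3.23 and 3.66 CPM. CTSL is a lysosomal protease and CST6 an inhibitor of such proteases, at 196 and 291 CPM against 5.99 and 10.2 CPM. ATP6V1G3 is a subunit of the vacuolar proton pump (694 CPM against 22.2 CPM), ALDH1L2 a mitochondrial folate enzyme (219 CPM against 7.18 CPM), RAB25 a GTPase of epithelial vesicle recycling (199 CPM against 5.06 CPM), and CSRP2 a LIM protein of the actin cytoskeleton (770 CPM against 25.8 CPM). NUPR1, a small nuclear protein of the stress response, was at 223 CPM against 4.88 CPM. Free RNA held 156 CPM of NUPR1, and 38.3 CPM in barcodes that no other library shared. TMEM254 and CCDC68 completed the 20, and a pair of genes without a symbol, ENSSSCG00000033667 (1972 against 31.7 CPM) and ENSSSCG00000008088 (1899 against 30.9 CPM), had ratios above that of IL1B2.

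**Figure D2:**
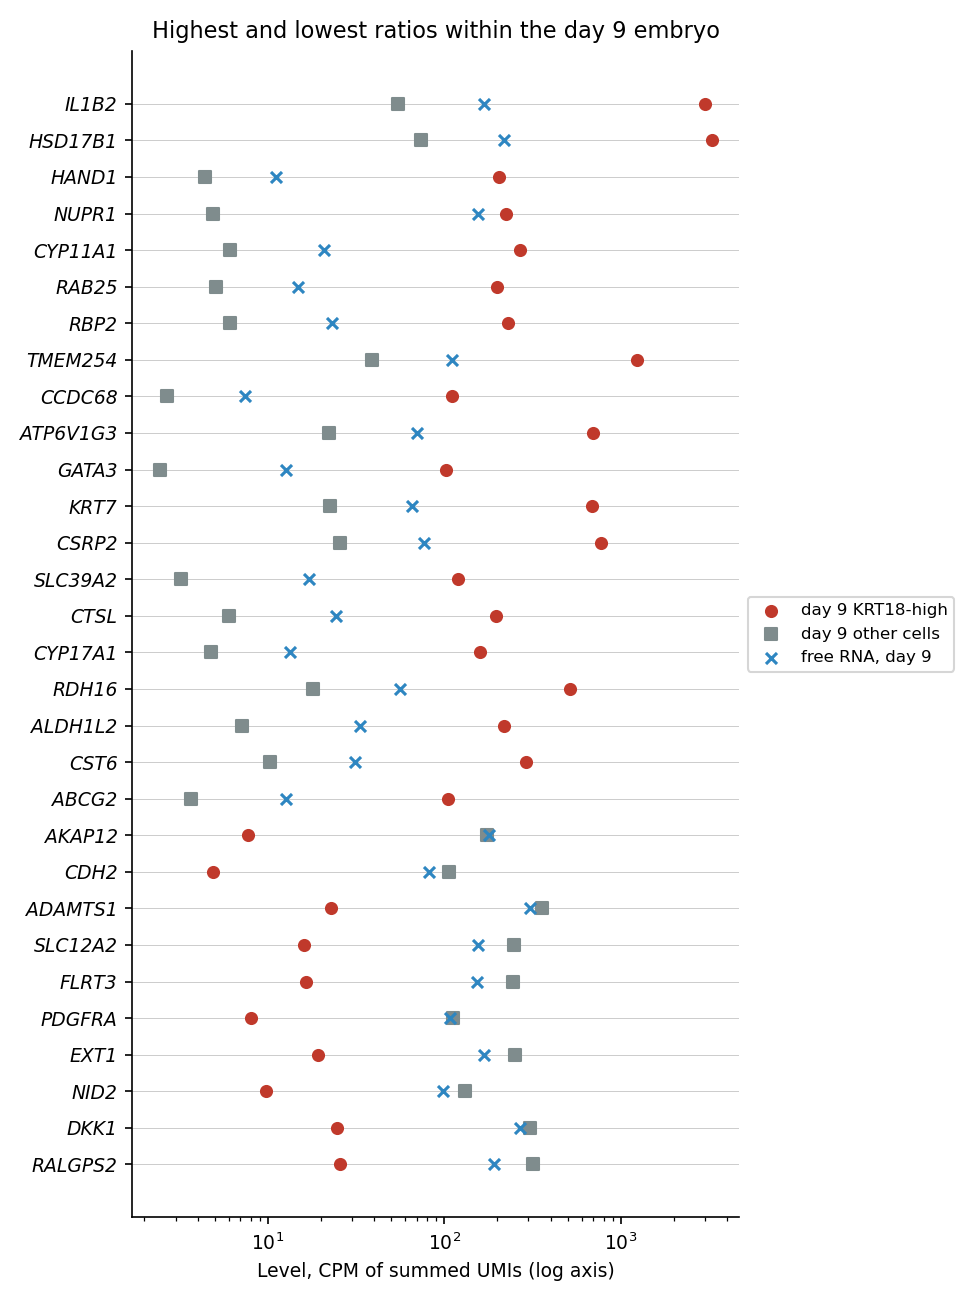
Levels in CPM of summed UMIs, on a log axis, of the 20 genes with the highest and the 10 with the lowest ratios among genes with a symbol, for the KRT18-high cells (circles), the other kept cells (squares) and free RNA of the day 9 embryo (crosses). For the upper 20 genes free RNA lies between both groups of cells, and for the lower 10 the KRT18-high cells lie at 4.90 to 25.8 CPM, to the left of both.

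Oestrogen synthesis runs from cholesterol through CYP11A1, CYP17A1 and aromatase (CYP19A1) to HSD17B1. Of 15 measured steroid synthesis genes, 8 were at least 2-fold higher and 3 at least 2-fold lower in the KRT18-high cells, with a median log2 ratio of 1.46. Over all 7873 genes at 5 CPM or more, the level used for gene lists, 8.81% were at least 2-fold higher and 35.3% lower, with a median of -0.51. STAR, which brings cholesterol into mitochondria, was at 30.2 CPM in the KRT18-high cells against 5.57 CPM in the others. CYP11A1, which cuts the side chain of cholesterol, was at 270 CPM (254 to 287) against 6.13 CPM, and its electron donors FDX1 and FDXR were at 519 and 178 CPM against 95.2 and 21.1 CPM. CYP17A1, which makes androgens, was at 159 CPM against 4.79 CPM, and CYB5A, the cytochrome b5 that assists it, at 664 CPM against 240 CPM. CYP19A1 was low in both groups, at 9.02 CPM in the KRT18-high cells and 0.547 CPM in the others. Only 21 of 28 listed steroid genes were matched, and aromatase is read here from CYP19A1 alone. SCARB1, a receptor that takes up cholesterol esters from lipoproteins, went the other way, at 16.5 CPM against 130 CPM. At equal depth, CYP11A1 was found in 49.7% of the KRT18-high cells and CYP17A1 in 28.9%, against 2.18% and 1.39% of the others (75.1% and 45.9%, against 6.18% and 4.77%, without thinning).

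Prostaglandins are lipid signals between conceptus and uterus. Of 7 measured prostaglandin genes, 4 were at least 2-fold higher and 1 lower, with a median of 1.65. PTGES, which makes prostaglandin E, was at 613 CPM in the KRT18-high cells against 45.5 CPM in the others. AKR1B1, an aldose reductase with prostaglandin F synthase activity, was at 408 CPM against 126 CPM. PTGS2, the inducible cyclooxygenase at the head of the pathway, was at 7.22 CPM against 0.292 CPM, and PLA2G4A, which releases its substrate from membranes, at 2.32 CPM against 28.9 CPM.

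Other genes of the interleukin 1 system were low. Of 14 matched genes 7 reached 5 CPM in either group, of which IL1B2 alone was at least 2-fold higher. IL1A, the receptors IL1R1 and IL1R2, the co-receptor IL1RAP and CASP1, the protease that matures interleukin 1 beta, had 0 counts in the KRT18-high cells. The exact interval for 0 counts in 3879933 UMIs runs up to 0.951 CPM for each.

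Of 21 measured trophectoderm regulators, 12 were at least 2-fold higher and 6 lower in the KRT18-high cells, with a median of 2.84. The median was 1.98 at an APOA1 threshold of 2500 CPM. That setting left 103 cells and moved the remaining KRT18-high cells into the comparison. Besides those named above, TEAD3 was at 23.7 CPM against 1.83 CPM and ELF3, an epithelial ETS factor, at 32.5 CPM against 2.99 CPM. TEAD4, which switches on CDX2 in the mouse, was at 49.2 CPM in the KRT18-high cells and 83.7 CPM in the others, and its co-activator YAP1 at 41.5 CPM and 48.0 CPM. Among the 6 lower genes were KLF5, a Krüppel-like factor (42.8 CPM against 199.5 CPM), ID2, an inhibitor of helix-loop-helix factors (49.2 CPM against 230 CPM), and WWTR1, the partner of YAP1 (7.47 CPM against 64.4 CPM).

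Keratins and other structural genes were split. KRT8, the partner of keratin 18, was at 30662 CPM in the KRT18-high cells against 2338 CPM in the others, and KRT8 and KRT18 together made up 5.33% of all UMIs against 0.334%. Of 12 measured keratin and epithelial genes 5 were at least 2-fold higher, the rule gene KRT18 among them, and 5 lower. Over all 7873 genes at 5 CPM or more these shares were 8.81% and 35.3%. EZR, which ties membrane to actin in microvilli, was at 1537 CPM against 475 CPM, while EPCAM, an epithelial adhesion molecule, was at 70.4 CPM against 298 CPM. Of 19 junction genes 4 were higher and 8 lower (median -0.88). The desmosome genes PKP2 and DSC2 were at 55.2 and 38.1 CPM against 12.2 and 15.01 CPM, and the tight junction gene CLDN6 at 135 CPM against 680 CPM. Of 26 actin cytoskeleton genes 8 were higher and 5 lower (median -0.50). TMSB4X, the actin-binding thymosin beta 4, was at 2691 CPM against 469 CPM, but free RNA held 2266 CPM, and 1134 CPM in barcodes that no other library shared.

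Lysosomes digest protein and lipid, and cathepsins are their proteases. Of 23 measured cathepsin and lysosome genes, 12 were at least 2-fold higher and 7 lower, with a median of 1.55. The median was 0.44 at an APOA1 threshold of 2500 CPM, where 103 cells were left and the remaining KRT18-high cells joined the comparison. GM2A, the activator protein for breakdown of gangliosides, was at 1009 CPM in the KRT18-high cells (978 to 1041) against 48.3 CPM in the others. NPC2, which carries cholesterol out of lysosomes, was at 1109 CPM against 159 CPM, and CSTB, a cytosolic inhibitor of cathepsins, at 2316 CPM against 264 CPM. PSAP, the precursor of the saposins, was at 545 CPM against 135 CPM, and LGMN, an asparagine-specific protease, at 234 CPM against 21.2 CPM. The 7 lower genes included CTSB and CTSC, at 17.5 and 6.96 CPM against 50.7 and 40.5 CPM. UPP1, which breaks down uridine, was at 413 CPM against 17.7 CPM, the only one of 12 nucleotide and polyamine genes at least 2-fold higher.

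Nuclear and mitochondrial genes of the respiratory chain stood on opposite sides. All 19 measured nuclear genes had a higher level in the KRT18-high cells than in the other cells, 4 of them by at least 2-fold, with a median of 0.73. Over all 7873 genes 2535 had a higher level. ATP5PO, a stalk subunit of ATP synthase, was at 1173 CPM against 340 CPM, and COX5A, a cytochrome oxidase subunit, at 1248 CPM against 480 CPM. The genes of the mitochondrial genome made up 0.741% of UMIs in the KRT18-high cells, against 3.74% in the other cells and 5.07% in free RNA. Of the 13 protein genes, 12 were lower, from 3.67-fold for COX2 to 8.30-fold for ND2, and ATP8 was near 0 in both groups. The median share per cell was 0.521% in the KRT18-high cells (0.282% to 1.18% between the 10th and 90th percentiles) against 3.35% (2.20% to 6.26%), so the bulk of both groups did not overlap.

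The lowest ratios belonged to genes of the other cells. AKAP12, a scaffold for protein kinases, was at 7.73 CPM in the KRT18-high cells (5.22 to 11.04) against 174 CPM, 22.5-fold lower (15.8 to 33.4). CDH2 (N-cadherin) was at 4.90 CPM against 106 CPM, PDGFRA, a growth factor receptor of the primitive endoderm, at 7.99 CPM against 112 CPM, and DKK1, a WNT inhibitor, at 24.7 CPM against 308 CPM. The matrix genes ADAMTS1 (a protease), NID2 (a basement membrane linker) and EXT1 (which builds heparan sulfate) were 15.7-fold, 13.3-fold and 13.1-fold lower. SLC12A2, FLRT3 and RALGPS2 completed the 10. Free RNA held 81.6 to 306 CPM of these 10 genes, above the KRT18-high cells for each.

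Most measured genes for attachment, amino acid uptake and cholesterol were at least 2-fold lower. Of 13 measured integrin and attachment genes, 9 were at least 2-fold lower and none 2-fold higher (median -2.62), though 4 had a higher level, with FN1 (fibronectin) at 529 CPM against 5165 CPM and the integrin gene ITGB1 at 32.5 CPM against 205 CPM. All 11 measured amino acid transporters were at least 2-fold lower (median -2.41), with SLC7A8 at 135 CPM against 721 CPM. Of 24 cholesterol genes, 18 were lower and NPC2 alone higher (median -2.06). SQLE, the squalene epoxidase of cholesterol synthesis, was at 6.44 CPM against 78.4 CPM, and HMGCS1, which acts near the start of that pathway, at 29.6 CPM against 121 CPM.

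Of 16 ion and water transport genes, 12 were lower and 2 higher (median -1.97). The higher ones were the zinc transporter SLC30A2 (73.7 CPM against 2.43 CPM) and the sodium channel subunit SCNN1A (20.6 CPM against 1.42 CPM). Of 18 growth factor and receptor genes 13 were lower and 1 higher (median -1.94). The higher one was IFNG, which had 20 UMIs in all 529 cells. Of 5 EGF family genes 1 was higher and 3 lower (median -1.065). The higher one was EREG (epiregulin), at 42.0 CPM against 3.33 CPM. The receptor ERBB3 was at 1229 CPM against 1206 CPM, a ratio of 1.02 (0.990 to 1.05).

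The lists that follow had medians from -0.80 to -0.06, beside -0.51 over all 7873 genes at 5 CPM or more. Of those genes 8.81% were at least 2-fold higher and 35.3% lower. Of 19 glucose and glycolysis genes 1 was higher and 5 lower (median -0.06). Of 15 genes of G1 and S phase and 19 of G2 and M, 5 each were at least 2-fold lower and none higher (medians -0.80 and -0.42). The lower ones were no larger a share than over all genes. Of 10 retinoid and steroid receptor and carrier genes 4 were higher, among them RARG, RBP2 and CRABP2, and 3 lower (median -0.18).

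Genes induced by cell dissociation were low in the KRT18-high cells. Of 12 measured, 11 were at least 2-fold lower and none higher (median -2.35), with the immediate early gene FOS at 57.5 CPM against 380 CPM in the other cells and 1264 CPM in free RNA. Of 11 genes of the unfolded protein response 7 were lower (median -1.48), with the protein disulfide isomerase PDIA4 at 71.9 CPM against 354 CPM. These levels, the mitochondrial share and the UMIs per cell all differed along with the gene groups above. Their part in those differences was not tested.

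**Figure D3:**
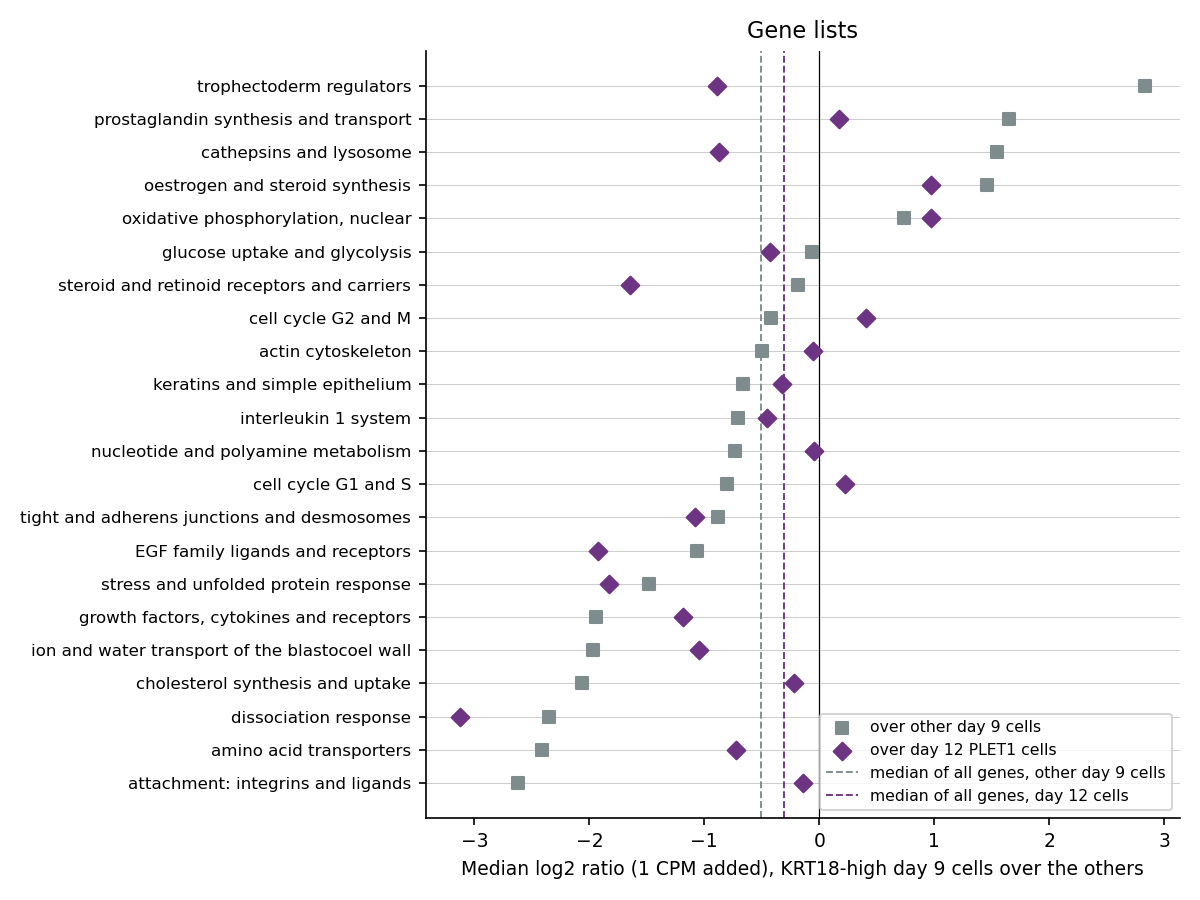
Median log2 ratio (1 CPM added) of each gene list in the KRT18-high day 9 cells, over the other day 9 cells (squares) and over day 12 PLET1 cells (diamonds), with dashed lines at the medians of all genes at 5 CPM or more. Trophectoderm regulators, prostaglandin, lysosomal and steroid genes lie at 1.46 to 2.84 over the other day 9 cells, and attachment genes and amino acid transporters at -2.62 and -2.41.

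The KRT18-high cells were not alike in IL1B2. The median cell had 1300 CPM of IL1B2, the 90th percentile 8269 and the highest cell 25065, while 31.0% had none. At equal depth 191 cells (36.1%) had no IL1B2 UMI, 116 had 1 to 5 and 222 (42.0%) had 6 or more. Among the other cells 90.5% had none at that depth. Among genes with a symbol at 100 CPM or more, mitochondrial, ribosomal protein and haemoglobin genes left out, IL1B2 had the highest variance over mean in the KRT18-high cells, 14.6, followed by TMSB4X at 6.12 and KRT18 at 4.97. KRT8, NUPR1, HSD17B1, PSAP, FTL, GM2A and CRK came next, from 4.89 to 2.21. HSD17B1, at a similar mean of 8.91 UMIs per thinned cell against 7.94 for IL1B2, had a value of 2.81. Without a symbol, ENSSSCG00000008088 and ENSSSCG00000033667 had values of 7.62 and 7.49.

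IL1B2 was lower in the shallowest cells, while HSD17B1 was at a similar level at each depth. IL1B2 was at 2205 CPM in the 177 shallowest cells (2786 to 4901 UMIs), 3296 CPM in the 176 of middle depth and 3115 CPM in the 176 deepest, and HSD17B1 at 3185, 3222 and 3334 CPM. The 222 IL1B2-high cells were set beside the 191 with none over 1269 genes at 100 CPM or more in either. Of these 19 were at least 2-fold higher in the IL1B2-high cells, IL1B2 included, and 16 lower, with a median log2 ratio of -0.03. HAND1 was at 393 CPM in IL1B2-high cells against 20.9 CPM in cells with none, TMSB4X at 4296 CPM against 994 CPM, the transmembrane adaptor SHISA4 at 194 CPM against 20.9 CPM, and the tetraspanin TSPAN33 at 222 CPM against 37.9 CPM. Lower in IL1B2-high cells were the lipid droplet coat gene PLIN2 (158 against 357 CPM), HSD11B2, which inactivates cortisol (53.9 against 123 CPM), PSAP (351 against 763 CPM), RBP2 (139 against 286 CPM) and ABCG2 (71.8 against 149.9 CPM). CYP17A1 was at 121 CPM against 218 CPM. These groups were cut from the measured IL1B2 counts, so their differences are a description of how cells sort within 1 library.

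Across the 529 cells, which share a library and were thinned to equal depth, IL1B2 correlated with TMSB4X (Pearson r 0.68, Spearman rho 0.74), with ENSSSCG00000008088 (r 0.80, rho 0.84) and with HAND1 (r 0.47, rho 0.54). It was negatively correlated with GM2A (r -0.35, rho -0.42) and UPP1 (r -0.32, rho -0.40). Sparse counts weaken such values.

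Clustered alone, the 529 cells were divided into 4 sub-clusters of 307, 138, 14 and 70 cells. At a clustering resolution of 1.0 in place of 0.6 there were 7, and the one highest in IL1B2 held 13.99% of the cells. The sub-clusters were made from the same counts, so their leading genes describe them and no more. Sub-cluster 1 (58.0%) had IL1B2 at 4817 CPM against 382 CPM in all others, HAND1 at 339 CPM against 12.0 CPM, and TMSB4X at 3847 CPM against 1015 CPM. Sub-cluster 2 (26.1%) had IL1B2 at 312 CPM, with GM2A at 1741 CPM against 757 CPM, the bile acid transporter SLC10A1 at 131 CPM against 47.8 CPM, and CYP17A1 at 261 CPM against 123 CPM. Sub-cluster 4 (13.2%) had IL1B2 at 626 CPM, RBP2 at 455 CPM and UPP1 at 774 CPM, and was low in the lysosomal proteases CTSH, LGMN and CTSL, at 9.05, 33.9 and 38.4 CPM.

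KRT18, KRT8 and HSD17B1 were high in each of the 4, at 16934 to 25881, 17370 to 34362 and 2301 to 4361 CPM. Sub-cluster 3 stood apart in depth and mitochondrial share, with 14 cells at medians of 9991.5 UMIs and 3.96% mitochondrial UMIs. These medians were 4927 to 6543 UMIs and 0.421% to 0.567% in the other sub-clusters. In the other kept day 9 cells they were 12206.5 UMIs and 3.35%. Sub-cluster 3 was led by the nucleoside transporter SLC28A3 (114 CPM), the endocytic receptor LRP2 (423 CPM), the mitochondrial COX1 and the ectoenzyme ENPP3 (268 CPM). CYP17A1 was at 711 CPM there. Without these 14 cells, 486 genes were higher and 1453 lower than in the other day 9 cells.

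**Figure D4:**
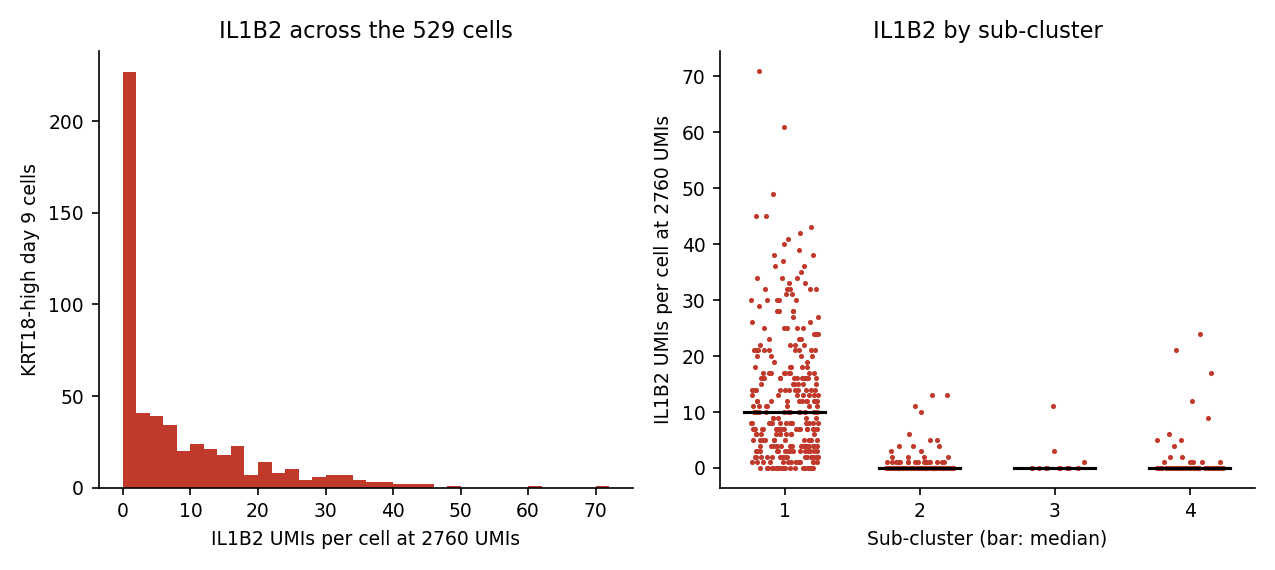
Left, the number of KRT18-high cells (y axis) by IL1B2 UMIs per cell at equal depth (x axis, 2 UMIs per bar). Right, the same UMIs for each cell by sub-cluster, with a bar at the median; sub-cluster 1 holds most cells with 6 or more UMIs, and the medians of sub-clusters 2, 3 and 4 are at 0.

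The cells next to the thresholds can be set beside the KRT18-high cells. The 158 cells with both KRT18 and APOA1 high had a median of 4250.5 UMIs and of 6845 CPM of APOA1. They had IL1B2 at 1784 CPM, HSD17B1 at 2064 CPM, HAND1 at 129 CPM and GATA3 at 58.8 CPM, each below the KRT18-high cells and far above the 6283 cells that were KRT18-low and APOA1-high, at 33.8, 50.7, 2.91 and 1.74 CPM. FN1 in them was at 1793 CPM, between 529 CPM in the KRT18-high cells and 5223 CPM in the KRT18-low cells. Leaving the 158 and the 31 cells out of the comparison gave 494 genes at least 2-fold higher and 1440 lower. No doublet caller was run, and whether these 158 cells are mixed droplets was not tested.

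For the question of how this layer differs between the days, the cells were set beside 2673 cells of the day 12 embryo, 46.0% of 5808 kept by the same filters, with PLET1, which encodes a surface protein of the placenta, at 2000 CPM or more and APOA1 below 5000 CPM. The KRT18 rule of day 9 would have kept 70 of those 5808 cells (1.21%), and KRT18 had a median of 2598 CPM in the PLET1 cells. Day and library cannot be told apart here. The day 12 cells had a median of 9643 UMIs and 3.46% mitochondrial UMIs.

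Of 4560 genes at 20 CPM or more, 609 (13.4%) were at least 2-fold higher and 1172 (25.7%) at least 2-fold lower in the day 9 KRT18-high cells. Genes at 50 CPM or more in both groups had a median log2 ratio of 0.28. Taking that shift out left 335 higher and 1416 lower, so the higher genes were 34.2% of those past 2-fold before and 19.1% after. Against the 70 day 12 cells of the KRT18 rule, with the shift left in, 766 of 4392 genes were higher and 928 lower.

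Among genes with a symbol, the highest ratios to day 12 were those of IL1B2, UPP1, RBP2, GM2A, ALDH1L2, HSD17B1, ZDHHC18, GLUD1, BCAT2 and ABCG2. Some genes without a symbol stood as high, such as ENSSSCG00000008088 at 1899 CPM on day 9 against 7.95 CPM on day 12. IL1B2 was seen in 63.9% of day 9 KRT18-high cells and 2.47% of day 12 cells at equal depth (69.0% and 7.89% without thinning), at 3006 and 11.4 CPM. RBP2 had 887 UMIs on day 9 and 12 on day 12, and UPP1 was at 413 CPM against 1.26 CPM. The mitochondrial amino acid enzymes BCAT2 and GLUD1, a transaminase and a glutamate dehydrogenase, were 10.1-fold (9.43 to 10.8) and 13.1-fold (12.2 to 14.1) higher on day 9. GLUD1 was higher still in the other day 9 cells, at 795 CPM. ZDHHC18, which attaches palmitate to proteins, was at 2111 CPM against 150 CPM.

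PLET1, which chose the day 12 cells, had 6 UMIs in the day 9 KRT18-high cells. CTBS, ENTPD8, PROM2, SELENOP, PLPP1, CYP26A1, ATP10B, IFNG and GJA1 were the other lowest ratios. Of these PROM2, CYP26A1, which degrades retinoic acid, and ATP10B had 0 counts in the day 9 KRT18-high cells. With a floor of 3 counts over the group in place of 0 they were 219-fold, 159-fold and 141-fold lower. CYP26A1 was seen in the other day 9 cells, with a log2 ratio of -2.40 to -2.02 over them across settings. IFNG was seen in 1.51% of day 9 KRT18-high cells and 78.2% of day 12 cells at equal depth (3.40% and 96.1% without thinning). GJA1 (connexin 43) was at 3.09 CPM against 348 CPM, and at 28.8 CPM in the other day 9 cells.

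**Figure D5:**
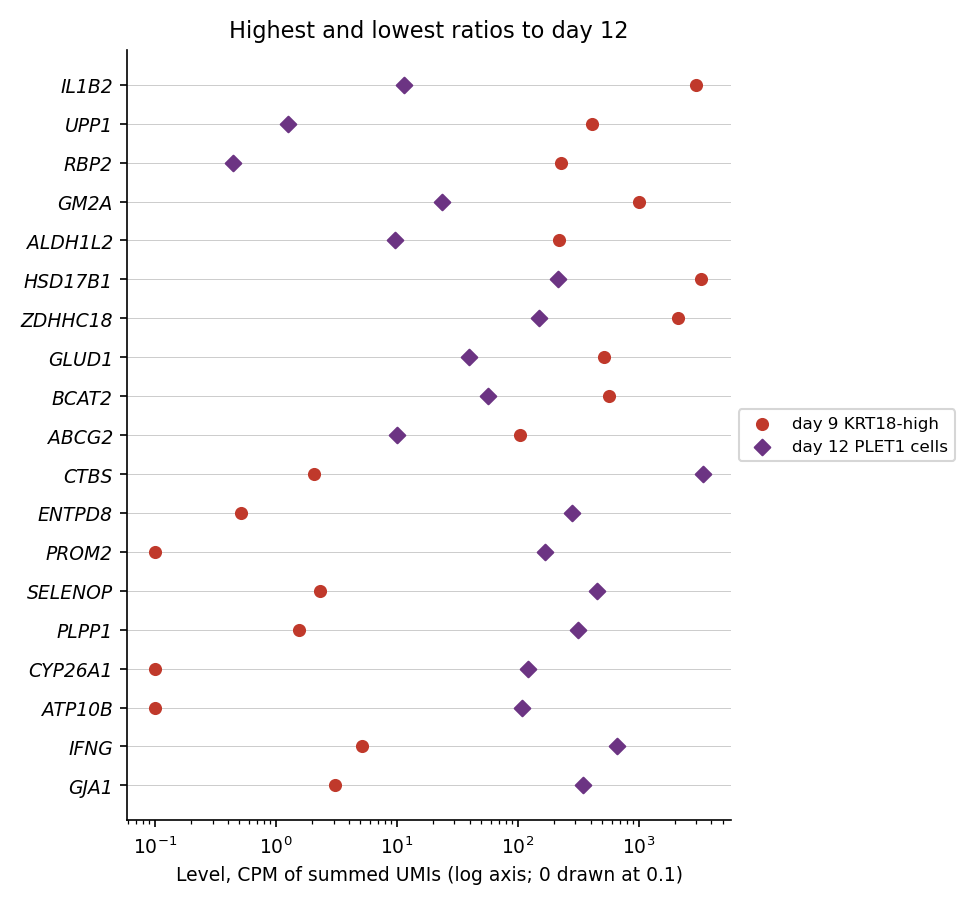
Levels in CPM of summed UMIs, on a log axis, of the 10 genes with the highest and 9 with the lowest ratios to day 12 (PLET1 left out), in day 9 KRT18-high cells (circles) and day 12 PLET1 cells (diamonds); genes with 0 counts are drawn at 0.1. The lower 9 genes are at 5.15 CPM or less in the day 9 cells, and the upper 10 at 104 CPM or more.

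Several groups that set the KRT18-high cells apart on day 9 stood elsewhere against day 12. Of 23 measured trophectoderm regulators, 3 were at least 2-fold higher and 11 lower on day 9, with a median of -0.89, against 10.1% and 29.9% of all 7776 genes at 5 CPM or more. HAND1 was in 33.5% of day 9 KRT18-high cells and 96.0% of day 12 cells at equal depth (44.2% and 98.9% without thinning), and GATA3 was at 102 CPM against 190 CPM. The 3 higher ones were ASCL2 (80.2 CPM against 1.74 CPM), TEAD4 (49.2 CPM against 11.5 CPM) and CDX2 (80.2 CPM against 39.5 CPM). Of 24 cathepsin and lysosome genes 4 were higher (GM2A, NPC2, CSTB and PSAP) and 12 lower, with CTSL at 196 CPM against 4634 CPM and CTSD at 364 CPM against 1305 CPM. Of 20 junction genes 1 was higher and 11 lower (median -1.08), and CDH1 (E-cadherin) was at 3.87 CPM against 89.5 CPM. That median was -0.45 against the 70 day 12 cells of the KRT18 rule.

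Of 15 measured steroid genes, 6 were at least 2-fold higher on day 9 and 1, CYP19A1, lower (9.02 CPM against 51.3 CPM), with a median of 0.97, or 0.69 with the shift taken out. CYP11A1, just short of 2-fold, and CYP17A1 were at 270 and 159 CPM on day 9 against 137 and 67.6 CPM on day 12. Of 7 prostaglandin genes 2 were higher and 3 lower, the median of 0.17 turning to -0.11 with the shift taken out. PTGES was at 613 CPM against 77.3 CPM, and PTGS2 was seen in 2.27% of day 9 KRT18-high cells and 48.5% of day 12 cells at equal depth (4.54% and 77.3% without thinning). The zinc transporter SLC30A2 was at 73.7 CPM against 0.629 CPM.

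Nuclear respiratory genes were higher on day 9 in 15 of 19, 8 of them by at least 2-fold, with a median of 0.97. The mitochondrial share of UMIs was 0.741% on day 9 and 3.68% on day 12. Of 15 growth factor and receptor genes 1 was higher and 10 lower (median -1.19), and of 5 EGF family genes none was higher and 4 were lower. EREG was only just among the 4, at 42.0 CPM against 85.1 CPM, and its log2 ratio turned to 0.58 against the 70 day 12 cells of the KRT18 rule. Of 12 dissociation genes 11 were lower on day 9 (median -3.12), with FOS at 57.5 CPM against 1077 CPM, and of 11 unfolded protein response genes 9 were lower (median -1.83). The part of dissociation, depth and mitochondrial share in the differences between days was not tested.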

How the data were processed

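The authors deposited raw counts of UMIs for 21280 genes in 4 matrices. The submitters' processing notes name Cell Ranger 6.1.2 and the build Sscrofa11.1, whereas per the file headers version 4 wrote the matrix of embryos at day 9 and version 6.1.2 the other 3. Depth in UMIs was 109449139 for day 9 embryos and 66992264 for day 12 embryos, and 27250593 and 27589239 for endometrium at days 9 and 12. Symbols were taken from the files for 14811 genes and from a reference table for 694.

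Cells needed 2760 UMIs, 500 genes and at most 20% UMIs from 13 mitochondrial protein genes. No doublet caller was run and no doublet was removed. Counts were summed per group of cells and scaled to CPM over all genes (Python 3.11.15, numpy 2.4.6, scipy 1.17.1, pandas 2.3.3). Ratios on the log2 scale had 1 CPM added, with exact binomial intervals for ratios and shares and exact Poisson intervals for levels. Genes needed 20 CPM in either group, and 5 CPM in gene lists (22 lists, 504 of 556 listed genes, markers included, matched). Named genes were the 20 highest and 10 lowest ratios within day 9 and the 10 highest and 10 lowest to day 12, at 100 CPM or more, without mitochondrial, ribosomal protein, haemoglobin and unnamed genes. To these came the 10 highest values of variance over mean, up to 6 genes of each list by level, and the markers. Other list genes, genes that differ with IL1B2 and leading genes of sub-clusters were chosen after their values were seen. Some listed genes are not reported here by name. The cells, lists and rules were chosen with earlier results of these data known.

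Shares of cells with a UMI, variances and IL1B2 groups used counts thinned at random to 2760 UMIs per cell (equal depth in the text). Sub-clusters came from scanpy 1.11.5 (Leiden, resolution 0.6, seed 0). No test was run, as every group is a single library. The ratio step was checked on simulated data. Alternatives changed the thresholds, minimum levels, scaling, depth and choice of comparison cells.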

Additional observations from a re-analysis of the deposited data

Results flagged for a closer look

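Barcodes of 1 to 100 UMIs in the day 9 embryo, which stand for free RNA and enter no comparison of cells, held transcripts of connective tissue that the cells lacked. COL3A1, a fibrillar collagen gene, was at 800 CPM (799.848) there and had 0 counts in the 529 KRT18-high cells, and it was at 0.102 CPM in the other kept cells. DCN, the decorin gene of stroma, was at 740 CPM (739.748) against 0.258 and 0.407 CPM, and COL1A1 at 730 CPM (730.102) against 0 counts and 0.114 CPM. In barcodes that no other library shared, the levels were 109, 162 and 336 CPM. The part of RNA from other libraries in these levels was not tested.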

How the results depend on the processing

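The share of KRT18-high cells, 7.56%, was 1.47% with APOA1 under 2500 CPM, 9.13% under 10000, 6.58% at a minimum of 1000 UMIs per cell and 5.60% at 5000. Against the other day 9 cells, 2778 genes were lower at a minimum of 5 CPM, 217 higher and 311 lower at 100 CPM, and 210 higher and 536 lower at a fold of 4. Against day 12, 335 were higher when scaled on the median of ratios, 2324 lower at 5 CPM, and 263 higher and 254 lower at 100 CPM. Cells with no IL1B2 UMI were 31.0% at their own depth, and the sub-cluster highest in IL1B2 held 13.99% of cells at Leiden resolution 1.0, which gave 7 sub-clusters. Named genes were partly chosen for their ratios in these same counts, so a change of direction was unlikely for those far apart. Of 146 genes chosen by the rule for named genes and at least 2-fold apart from the other day 9 cells, 0 changed direction under any setting, and of 100 genes within 2-fold 23 did. Over day 12, 38 of 120 within 2-fold did, and 3 of 126 at least 2-fold apart, with day 12 cells chosen by the KRT18 rule: DKK1 came to -0.16, SLC12A2 to -0.088 and EREG to 0.58; the cause was not tested. The median of trophectoderm regulators over the other day 9 cells was 1.98 and that of cathepsins and lysosome 0.44 at APOA1 under 2500. That setting also moved most KRT18-high cells into the comparison. IL1B2 ran from 4.20 to 6.43 (log2) over the other day 9 cells and from 7.64 to 8.01 over day 12. The shared-barcode, sub-cluster and KRT18-low comparisons, the second thinning draw and the other resolutions were added after the data were seen. No paired analysis was possible because each group is 1 library and the labels carry no replicate numbers. Single libraries leave variation between embryos unmeasured, and at a median of 6169 UMIs per cell a gene near 100 CPM is missed in many cells, so an absent UMI does not show an absent transcript.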
